A study of Homo sapiens with 20 samples.

Results

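The mitochondrial 2-oxoacid dehydrogenase complexes were followed through 10 genes of 45372 in the deposited tables, all of which passed the filter on low values in both tables. The genes were taken by name: PDHA1, PDHB, DLAT, PDHX and DLD of the pyruvate dehydrogenase complex, OGDH, OGDHL and DLST of the 2-oxoglutarate dehydrogenase complex, and BCKDHA and BCKDHB of the branched-chain 2-oxoacid dehydrogenase complex. The genes were selected on the fold changes of these same libraries between HUWE1 siRNA and control, which were in view when the list was made. Those fold changes are therefore given below as descriptions with their errors, and no p-value is printed for them. Where one of the 10 genes is said to be called, this too is a description of values that chose it, and counts of calls can be read only against the share called among all genes.

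These complexes sit in the mitochondrial matrix and share a plan. A thiamine-dependent E1 enzyme decarboxylates the 2-oxoacid, an E2 core takes up the acyl group on a lipoyl arm and passes it to coenzyme A, and a flavoprotein E3 reoxidises the arm. Each complex has its own E1 and E2, and dihydrolipoamide dehydrogenase, the product of DLD, serves as the E3 of all of them. The pyruvate complex feeds acetyl-CoA into the tricarboxylic acid cycle, the 2-oxoglutarate complex is a step of that cycle, and the branched-chain complex commits leucine, isoleucine and valine to breakdown.

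Stranded mRNA libraries were made from HEK293T, an established line derived from human embryonic kidney that expresses the large T antigen of SV40. The cells had received siRNA against HUWE1, which encodes a HECT-domain ubiquitin ligase, or non-targeting (NT) siRNA. There were 20 libraries in 5 groups of 4 biological replicates: NT and HUWE1 groups whose labels name no set (here set 1), HUWE1 groups of set 2 and of set 3, and the NT group that sets 2 and 3 share. The labels do not state what separates the sets (siRNA sequence, date or dose) or the time after transfection. Values are TPM, a share of transcripts scaled for transcript length, so levels can be compared between genes within a table. Set 1 and sets 2 and 3 stand in tables that were normalized separately, and were not tested together.

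The siRNA lowered its target in every set: the mean HUWE1 level was 54.1%, 57.9% and 51.9% of control in sets 1, 2 and 3 (two-sided exact permutation p = 0.0286 in each, the smallest that 4 against 4 libraries allow). The line's own genes VIM, KRT8, KRT18, NEFL and NEFM stood at 38.1 TPM or more in every library, and 9 markers of other cell types summed to between 5.21 and 14.9 TPM. Across genes, the lowest correlation of log2(TPM + 1) between 2 libraries of a group was 0.980, between NT replicates 1 and 4 of sets 2 and 3, against 0.992 or more in the other groups. These 2 libraries stand at the ends of the control range for OGDH, OGDHL, PDHA1, BCKDHA, BCKDHB, PDHX and DLAT. The fold changes of the first 5 of these genes are given with and without them. Those of PDHX and DLAT are given with 1 library left out at a time. Mitochondrially encoded genes took 16.6% to 18.3% of TPM in the shared controls, 16.3% to 17.5% in set 2 and 15.5% to 16.4% in set 3, which lies below the controls, and 24.3% to 26.2% in set 1 libraries. Sequencing depth is unknown, since TPM keeps no depth.

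Of the 10 genes, 9 were found by symbol among the RefSeq promoter windows of build GRCh38.p14 and OGDH was not. The 250 bases before the first listed transcription start are shown for DLST, DLD and OGDHL, the E2 and E3 partners and the paralogue of OGDH. They were picked because their transcripts did not follow that of OGDH in sets 2 and 3 below. In set 1 the fold changes of DLST and DLD were negative too (-0.087 and -0.044, against -0.23 for OGDH). Capitals mark matches, on either strand, to the E-box (CACGTG), the CCAAT box (letters as named), the GC-box (GGGCGG) and an ETS motif (CCGGAAGT); matches of different motifs may overlap.
DLST (chr14:74881666-74881915, plus strand): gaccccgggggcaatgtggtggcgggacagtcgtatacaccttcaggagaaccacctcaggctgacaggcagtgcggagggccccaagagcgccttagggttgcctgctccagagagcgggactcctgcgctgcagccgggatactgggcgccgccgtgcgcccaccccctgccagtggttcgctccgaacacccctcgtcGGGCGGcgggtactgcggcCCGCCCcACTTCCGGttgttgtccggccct
DLD (chr7:107890857-107891106, plus strand): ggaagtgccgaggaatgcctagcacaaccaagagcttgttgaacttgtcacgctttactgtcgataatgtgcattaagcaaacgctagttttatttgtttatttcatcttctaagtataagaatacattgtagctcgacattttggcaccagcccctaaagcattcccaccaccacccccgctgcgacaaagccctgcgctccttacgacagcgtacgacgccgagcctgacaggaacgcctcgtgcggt
OGDHL (chr10:49762324-49762573, minus strand): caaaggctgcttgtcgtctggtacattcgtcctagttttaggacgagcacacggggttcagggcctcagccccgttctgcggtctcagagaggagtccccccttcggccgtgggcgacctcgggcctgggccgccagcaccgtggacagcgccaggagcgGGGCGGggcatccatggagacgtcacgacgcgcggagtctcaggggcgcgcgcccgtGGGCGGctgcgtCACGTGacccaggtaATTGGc
Over all starts listed for a gene, CCAAT was in the windows of 7 of the 9 genes and in 37.00% of all 27305 genes with a window, or 41.7% of those tested in both tables. DLD is among the 7 through a window not shown, with CCAAT 63 bases before another listed start, while its window above has no match. GGGCGG was in 6 of 9 and 46.2%, or 75.5% of those tested. CACGTG was in those of PDHB and OGDHL (7.73% of all genes, 11.3% of those tested) and CCGGAAGT in that of DLST (4.13% and 8.06%). The NRF1 core, the YY1 core and the ERR motif (TCAAGGTCA), also searched on both strands, were in none of the 9, and in 1.28%, 0.304% and 0.388% of all genes (2.28%, 0.513% and 0.252% of those tested).

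OGDH had the most negative fold change of the 10 genes in each of the 3 sets. It encodes the E1 subunit of the 2-oxoglutarate complex (GRCh38, chromosome 7, 44606572 to 44709066, plus strand). In set 1 its TPM was 69.4, 71.6, 67.99 and 71.02 in the 4 controls and 56.5, 61.3, 58.6 and 61.3 in the 4 HUWE1 libraries. All 4 HUWE1 values lay below all 4 controls. The log2 fold change was -0.23 ± 0.032 (SE), which left 84.9% of the control mean.

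In the second table the controls held 75.8, 70.7, 71.03 and 59.2 TPM of OGDH in replicates 1 to 4. HUWE1 set 2 held 57.3, 60.9, 61.99 and 65.6 TPM, a range that overlaps the lowest control. The log2 fold change in set 2 was -0.16 ± 0.072 (SE), or 88.8% of control. HUWE1 set 3 held 44.7, 46.9, 40.8 and 43.9 TPM, below every control and every set 2 library. There the log2 fold change was -0.64 ± 0.072 (SE), or 63.7% of control. Sets 2 and 3 are measured against the same controls. Without NT replicates 1 and 4 the fold changes of OGDH were -0.20 in set 2 and -0.68 in set 3. With mitochondrially encoded genes taken out of the TPM total they were -0.18 and -0.67. OGDH was called in sets 1 and 3 and not in set 2.

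**Figure D1:**
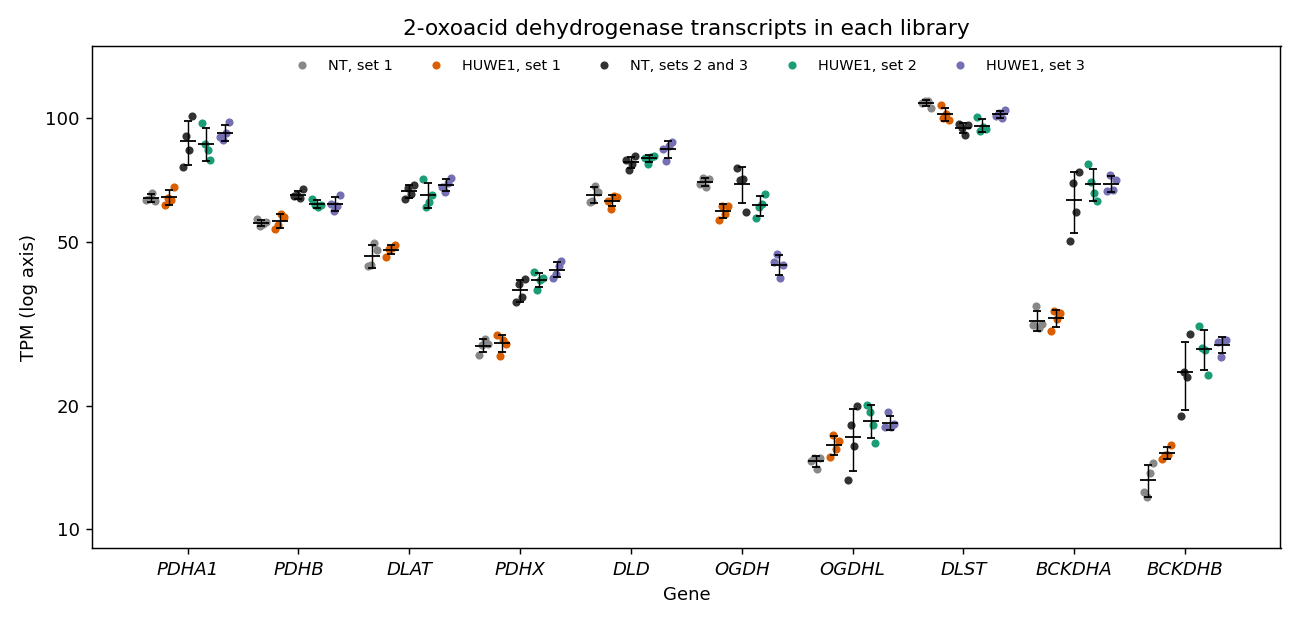
TPM (log axis) of the 10 genes in each of 20 libraries, with points for libraries and black bars for the mean ± SD of 4. OGDH in HUWE1 set 3 runs from 40.8 to 46.9 TPM, below all controls, whose range is 59.2 to 75.8 TPM, while DLST and DLD of the same complex show no such step.

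The difference between sets 3 and 2 is that of the 2 fold changes just given, which chose the gene, so it is a description too. The control libraries enter its SE through the shared fit. The log2 difference of OGDH was -0.47 ± 0.072 (SE), from 61.4 ± 3.43 to 44.1 ± 2.51 TPM (SD, n = 4), with 4 of 4 set 3 libraries below every set 2 library. It was the 1 call among the 10 genes, where 0.517% of all genes were called (0.208% lower and 0.309% higher). It was also the 1 gene of the 10 whose ranges did not overlap between the sets, beside 13.2% of all genes (5.05% lower and 8.13% higher). The call was lost when any of 6 of the 8 libraries of sets 2 and 3 was left out, HUWE1 set 2 replicates 2, 3 and 4 and HUWE1 set 3 replicates 1, 3 and 4, and with the replicate number as a block. With any 1 library left out the log2 difference stayed between -0.50 and -0.43. HUWE1 itself stood at 95.6, 94.3, 91.6 and 96.8 TPM in set 2 and 79.9, 89.7, 80.3 and 89.3 TPM in set 3 (log2 difference -0.16 ± 0.045 (SE), limma adjusted p = 0.134); the part of this in the OGDH difference was not tested.

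The paralogue of OGDH did not share the lower level. OGDHL encodes an OGDH-like E1 known mainly from brain (GRCh38, chromosome 10, 49734643 to 49762379, minus strand). Its TPM in set 1 was 14.7, 14.9, 14.03 and 14.9 in controls and 15.01, 16.99, 15.7 and 16.4 in HUWE1 libraries, which do not overlap. The log2 fold changes were 0.12 ± 0.044, 0.14 ± 0.10 and 0.13 ± 0.10 (SE) in sets 1, 2 and 3, positive in each and not called. In set 1 OGDHL was called with median-of-ratios scaling, without mitochondrially encoded genes and without HUWE1 replicate 1. Leaving out 1 library gave 0.035 to 0.22 in set 2 and 0.023 to 0.21 in set 3, with the ends at NT replicates 1 and 4, and leaving out both of these gave 0.11 and 0.10. In the second table the controls alone spanned 13.2 to 19.9 TPM, which covers every set 3 value (17.7 to 19.3) and all but replicate 1 of set 2 (20.1, 19.3, 17.96 and 16.2). OGDH and OGDHL are similar in sequence, so how reads were divided between them depends on a counting step the sources do not describe.

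With OGDH lower and OGDHL not, the share of OGDHL in their summed TPM was 17.3 ± 0.160% in set 1 controls and 21.2 ± 0.312% in HUWE1 set 1 (SD, n = 4), ranges that do not overlap. It was 19.7 ± 4.31% in the shared controls, 23.1 ± 2.62% in set 2 and 29.2 ± 0.759% in set 3 (SD, n = 4). In set 3 the lowest library was above the highest control (28.4% against 25.2%), and in set 2 the ranges overlapped. The summed TPM of both E1 genes was 85.9 ± 4.65 in the shared controls, 79.8 ± 1.83 in set 2 and 62.3 ± 3.11 in set 3 (SD, n = 4), so the higher share came with a lower sum.

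DLST encodes the E2 core of the 2-oxoglutarate complex (GRCh38, chromosome 14, 74881891 to 74903745, plus strand) and had the highest mean of the 10 genes in all 5 groups. PDHA1, next in order, overlapped DLST in range in the shared controls and in set 2. In set 1 its TPM was 109, 110.1, 110.00 and 106 in controls and 108, 100.4, 103 and 98.9 in HUWE1 libraries. HUWE1 replicate 1 lay among the controls and the other three below them. The log2 fold change was -0.087 ± 0.030 (SE); it was called at the edge of the threshold and lost the call without any of 6 of the 8 libraries, with a pseudocount of 0.1, without the filter, without the variance trend and with either other scaling. For sets 2 and 3 the TPM was 96.7, 94.9, 91.1 and 96.3 in controls, 101, 93.3, 95.4 and 94.4 in set 2 and 101, 103, 100.03 and 105 in set 3. Set 3 was above all controls, with log2 fold changes of 0.018 ± 0.037 in set 2 and 0.11 ± 0.037 in set 3 (SE), neither called. Without mitochondrially encoded genes the set 3 value was 0.078. DLST was thus on the other side of control from OGDH in set 3.

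DLD, the E3 shared by all the complexes (GRCh38, chromosome 7, 107890970 to 107931730, plus strand), held 62.7, 62.9, 68.6 and 66.3 TPM in set 1 controls and 63.1, 60.2, 64.7 and 64.4 in HUWE1 set 1. The ranges overlapped. Beside sets 2 and 3 it held 79.4, 75.02, 77.4 and 80.9 TPM in controls, 80.3, 77.3, 80.7 and 81.2 in set 2 and 84.3, 78.7, 85.7 and 87.5 in set 3. The log2 fold changes were -0.044 ± 0.036, 0.031 ± 0.041 and 0.10 ± 0.041 (SE) in sets 1, 2 and 3. None was called, and the DLD gene overlaps LAMB1 on the opposite strand.

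The ratio of E1 to E2 transcripts was taken within each library. Like the OGDHL share above, it is built from the OGDH values that chose the gene, so it is a description too. OGDH stood at 0.643 ± 0.0223 per DLST in set 1 controls and 0.582 ± 0.0433 in HUWE1 set 1, with ranges of 0.618 to 0.671 and 0.525 to 0.619 that overlap at their ends. With the shared controls it was 0.731 ± 0.0795 in controls, 0.641 ± 0.0534 in set 2 and 0.431 ± 0.0215 in set 3 (SD, n = 4 each). The set 3 libraries, at 0.408 to 0.455, lay below all the others. DLST per DLD, the E2 to E3 ratio, was 1.21 ± 0.0391, 1.20 ± 0.0409 and 1.22 ± 0.0618 in the same groups (SD, n = 4 each), with overlapping ranges.

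**Figure D2:**
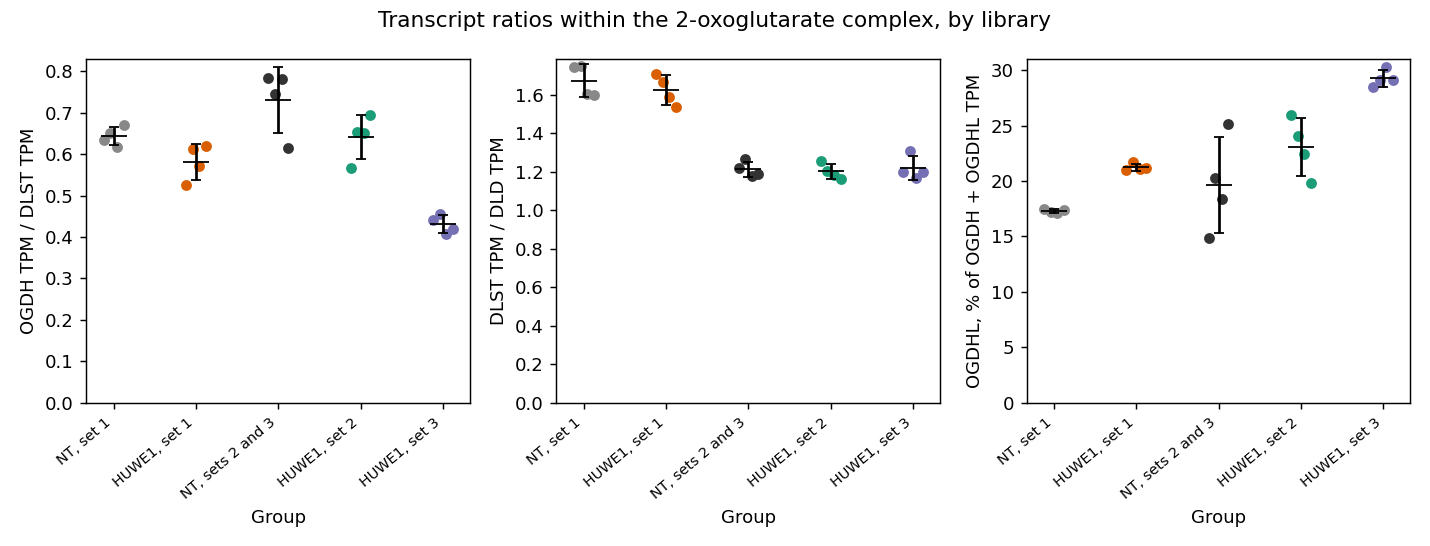
Ratios of TPM per library for OGDH to DLST, DLST to DLD, and the OGDHL share of OGDH plus OGDHL in percent, with points for libraries and bars for the mean ± SD of 4. HUWE1 set 3 is lowest for OGDH per DLST (0.408 to 0.455) and highest for the OGDHL share (28.4 to 30.3%), both built from the OGDH values that chose the gene. DLST per DLD overlaps among the 3 groups of the second table.

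The pyruvate dehydrogenase genes stayed nearer to control. PDHA1, the X-linked E1 alpha subunit which carries the sites of inhibitory phosphorylation, held 63.5, 63.6, 65.9 and 62.8 TPM in set 1 controls and 61.7, 64.1, 63.4 and 68.2 in HUWE1 set 1. Its shared controls ran from 75.98 to 101 TPM, which spans all set 2 and set 3 libraries (79.1 to 97.5 and 88.8 to 97.8). The log2 fold changes were 0.0077 ± 0.033, -0.015 ± 0.082 and 0.075 ± 0.082 (SE). Leaving out 1 library gave -0.081 to 0.056 in set 2 and 0.0084 to 0.15 in set 3, with the ends at NT replicates 1 and 4, and leaving out both of these gave -0.0088 and 0.081. PDHB, the E1 beta subunit, held 64.5, 64.97, 64.01 and 67.2 TPM in the shared controls, 63.7, 61.5, 60.8 and 61.6 in set 2 and 61.9, 59.4, 61.1 and 65.1 in set 3. All set 2 values and 3 of 4 set 3 values were below every control. The log2 fold changes of PDHB were -0.073 ± 0.037 in set 2 and -0.075 ± 0.037 in set 3, against 0.014 ± 0.032 in set 1 (SE).

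DLAT encodes the acetyltransferase core, the E2, and PDHX the binding protein that holds the E3 to that core. DLAT held 43.6 to 49.7 TPM in set 1 controls and 46.1 to 49.1 in HUWE1 set 1, and 63.7 to 68.8, 61.02 to 71.3 and 66.2 to 71.6 in shared controls, set 2 and set 3. Its ranges overlapped in each set. The log2 fold changes of DLAT were 0.051 ± 0.044, -0.031 ± 0.050 and 0.053 ± 0.050 (SE) in sets 1, 2 and 3, not called. Leaving out 1 library gave -0.076 to -0.0021 in set 2 and 0.034 to 0.072 in set 3. PDHX held 35.7, 39.6, 36.7 and 40.7 TPM in the shared controls, 42.2, 38.3, 40.3 and 40.9 in set 2 and 40.97, 41.7, 43.8 and 44.9 in set 3. The set 3 libraries were above every control, with a log2 fold change of 0.16 ± 0.051, against 0.082 ± 0.051 in set 2 and 0.018 ± 0.042 in set 1 (SE). It was 0.13 in set 3 without mitochondrially encoded genes. Leaving out 1 library gave 0.051 to 0.11 in set 2 and 0.13 to 0.19 in set 3, with the ends at NT replicates 1 and 4. PDHX per DLAT was 0.574 ± 0.0156 in the shared controls, 0.623 ± 0.0223 in set 2 and 0.622 ± 0.0144 in set 3 (SD, n = 4 each). The set 2 and set 3 libraries all lay above these controls (0.560 to 0.591), though the lowest set 2 library, at 0.5916, was close to the highest control, at 0.5907. In set 1 the ratio was not higher, at 0.605 ± 0.0236 in controls and 0.592 ± 0.0404 in HUWE1 libraries (SD, n = 4 each), with overlapping ranges. How often ratios of other gene pairs separate was not tested.

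In the branched-chain complex BCKDHB, the E1 beta subunit (GRCh38, chromosome 6, 80106647 to 80346270, plus strand), had positive fold changes in all 3 sets. Its TPM in set 1 was 12.3, 12.02, 13.7 and 14.5 in controls and 14.9, 15.2, 15.2 and 16.1 in HUWE1 libraries, which do not overlap. The log2 fold change of 0.21 ± 0.058 (SE) was called, and the call was lost without the filter and without NT replicate 1, NT replicate 2 or HUWE1 replicate 4. In the second table BCKDHB held 18.8, 24.1, 23.5 and 29.9 TPM in controls, 31.2, 27.6, 27.3 and 23.8 in set 2 and 28.5, 26.2, 28.9 and 28.9 in set 3. NT replicates 1 and 4 formed the ends of this control range and enclosed set 3. The log2 fold changes were 0.19 ± 0.11 in set 2 and 0.23 ± 0.11 in set 3 (SE), not called. Leaving out 1 library gave 0.087 to 0.30 in set 2 and 0.13 to 0.34 in set 3, with the ends at NT replicates 1 and 4, and leaving out both of these gave 0.19 and 0.23.

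BCKDHA, the E1 alpha subunit, held 31.4, 34.99, 30.9 and 31.6 TPM in set 1 controls and 30.4, 34.03, 32.6 and 33.6 in HUWE1 set 1. Beside sets 2 and 3 it held 50.2, 69.6, 59.03 and 74.2 in controls, 77.3, 70.00, 65.96 and 63.1 in set 2 and 66.4, 72.7, 66.8 and 70.8 in set 3. The controls again ran from replicate 1 at the bottom to replicate 4 at the top. Log2 fold changes were 0.020 ± 0.047, 0.14 ± 0.10 and 0.14 ± 0.10 (SE). Leaving out 1 library gave 0.034 to 0.22 in set 2 and 0.038 to 0.22 in set 3, with the ends at NT replicates 1 and 4, and leaving out both of these gave 0.10 and 0.11. The gene overlaps EXOSC5 on the opposite strand, and the sources do not state whether the authors' counting used strand. PDHX, PDHA1 and DLAT also overlap protein-coding genes on the opposite strand, APIP, MAP3K15 and PIH1D2 (at most 26.6, 13.8 and 5.68 TPM). PDHB overlaps the antisense gene AC135507.1 (at most 2.21 TPM). BCKDHA per BCKDHB lay between 2.05 and 2.91 in every library.

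The control libraries of sets 2 and 3 varied together across genes. PDHA1, DLAT, PDHX, OGDHL, BCKDHA and BCKDHB were lowest in replicate 1 and highest in replicate 4. OGDH was highest in replicate 1 and lowest in replicate 4. The coefficient of variation among these controls was 17.1% for OGDHL, 18.9% for BCKDHB, 17.0% for BCKDHA, 12.2% for PDHA1 and 10.2% for OGDH. It was 6.16% for PDHX, 3.49% for DLAT, 3.26% for DLD, 2.73% for DLST and 2.16% for PDHB. In HUWE1 set 2 the order ran the other way by number, with OGDH lowest and BCKDHA, BCKDHB, PDHA1 and OGDHL highest in replicate 1. The part of this shared variation in the fold changes was not tested.

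Counted over all 10 genes, 3 were called in set 1 (OGDH and DLST lower, BCKDHB higher), where 30.3% of 16057 tested genes were called (12.3% higher and 17.9% lower). In set 2, limma called 0 of the 10 genes and 0.0126% of 15860 tested. An unadjusted p under 0.05 was seen for 1 of the 10, OGDH, and for 1401 of all genes tested. For OGDH this too describes values that chose the gene and is no test of it. In set 3 limma called 1, OGDH, against 11.6% of all genes (4.15% lower and 7.45% higher). Higher genes were 64.2% of those 1839 calls, 48.9% with median-of-ratios scaling and 44.4% without mitochondrially encoded genes, and the calls numbered 163 without HUWE1 set 3 replicate 3 and 5878 without NT replicate 4. Groups did not overlap for 3 of the 10 genes in set 1 (OGDHL and BCKDHB higher, OGDH lower), beside 31.7% of all genes (13.3% higher and 18.4% lower). In set 2 this held for 1, PDHB, lower, beside 3.69% (1.99% higher and 1.71% lower). In set 3 it held for 3 (PDHX and DLST higher, OGDH lower), beside 17.2% (11.2% higher and 6.03% lower). These shares are near the background in set 1 and the numbers of genes are small in each set. The median log2 fold change of the 10 genes was 0.016, 0.024 and 0.11 in sets 1, 2 and 3, beside -0.012, -0.0041 and 0.0074 over all genes tested. Without NT replicate 4 the set 3 count was 5, with PDHX, DLD, DLST and BCKDHB higher, and without NT replicates 1 and 4 it was 2, OGDH and DLST.

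**Figure D3:**
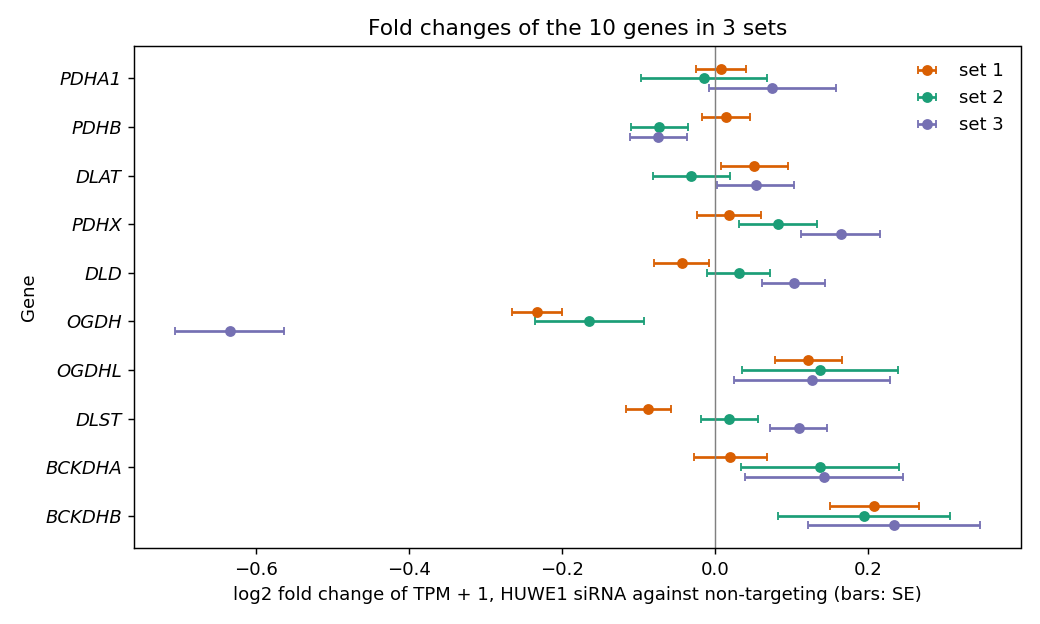
Log2 fold changes of TPM + 1 (horizontal axis) for each gene in sets 1, 2 and 3, with SE bars. OGDH is the only gene of the 10 left of zero by more than 0.1 in any set, at -0.23, -0.16 and -0.64. BCKDHB, OGDHL, PDHX and BCKDHA lie right of zero in all 3 sets, PDHX and BCKDHA by only 0.018 and 0.020 in set 1.

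Between sets 3 and 2 the log2 differences of the 9 other genes, none of them called, were 0.089 ± 0.082 for PDHA1, -0.0017 ± 0.037 for PDHB, 0.084 ± 0.050 for DLAT, 0.082 ± 0.051 for PDHX and 0.072 ± 0.041 for DLD (SE). They were 0.091 ± 0.037 for DLST, -0.012 ± 0.10 for OGDHL, 0.0049 ± 0.10 for BCKDHA and 0.039 ± 0.11 for BCKDHB (SE).

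Levels per length can be ordered within a table. In set 1 controls the order ran DLST (109 TPM), OGDH (70.00), DLD (65.1), PDHA1 (63.9), PDHB (55.7), DLAT (46.3), BCKDHA (32.2), PDHX (27.99), OGDHL (14.6) and BCKDHB (13.2). The neighbours OGDH and DLD, DLD and PDHA1, and OGDHL and BCKDHB overlapped in range. OGDH was the 2nd of the 10 in set 1 controls, the 4th in HUWE1 set 1 and in the shared controls, and the 7th in HUWE1 sets 2 and 3 by mean. Its range overlapped those of its neighbours DLD in set 1 controls, DLD and PDHB in HUWE1 set 1, DLD and DLAT in the shared controls, PDHB in set 2 and PDHX in set 3, so its place among them is not fixed. DBT, the branched-chain E2, was not one of the 10 and held 10.5 ± 0.458 and 17.8 ± 0.905 TPM in the 2 control groups (SD, n = 4 each).

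The 5 genes whose levels most resembled those of DLD over the 20 libraries, after each table was centred on its own mean, were NRAS (Pearson r = 0.90), GINS1 (0.89), CFL2 (0.88), BZW1 (0.87) and CBR4 (0.87), a subunit gene of mitochondrial fatty acid synthesis. The median over 15296 genes was 0.054. Among the complex genes r with DLD was 0.67 for PDHX, 0.54 for DLST, 0.52 for DLAT, 0.33 for BCKDHB, 0.32 for PDHA1, 0.028 for PDHB, 0.00014 for BCKDHA, -0.10 for OGDHL and -0.53 for OGDH. The libraries share their groups and scaling, so these values describe likeness and carry no p.

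Genes that switch, lipoylate or supply the complexes were taken as 7 lists with 70 genes, all tested. In set 1 limma called 12 higher and 11 lower, close to the 30.3% called of all genes. In set 2 it called 0, beside 0.0126% of all genes. An unadjusted p under 0.05 was seen there for 4 of the 70 and for 1401 of 15860 genes. In set 3 it called 1 higher and 1 lower, beside 11.6% (7.45% higher and 4.15% lower), a smaller share than over all genes. That holds for the calls only, since an unadjusted p under 0.05 was seen for 28 of the 70 and for 5470 of 15860 genes. Between sets 3 and 2 it called 0, beside 0.517% of all genes. There 8 of the 70 had an unadjusted p under 0.05, as had 2507 of 15860 genes.

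Of 9 kinase and phosphatase genes, limma called 1 higher and 2 lower in set 1, where 30.3% of all genes were called. PDP1 and PDP2, which encode the phosphatases that reactivate pyruvate dehydrogenase, both fell in set 1, with means of 26.8 against 32.8 TPM in controls and 23.5 against 26.4 TPM (-0.28 ± 0.049 and -0.16 ± 0.043 on the log2 scale, SE, limma adjusted p = 0.00244 and 0.0174). PPM1K, the phosphatase of the branched-chain complex, rose by 0.18 (limma adjusted p = 0.0445). In sets 2 and 3 PDP1 stood at -0.17 and -0.34, and PDP2 at -0.11 and -0.23, without a call. In set 2 the list's smallest p belonged to PDK4, a kinase that inactivates pyruvate dehydrogenase (-0.18, limma adjusted p = 0.57).

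Of 12 genes of lipoate synthesis and transfer, 2 rose and 3 fell in set 1 (30.3% of all genes called) and 1 fell in set 3 (11.6% of all genes). LIPT1, which encodes the lipoyltransferase that loads the E2 subunits, fell in set 1 (-0.33 ± 0.048, limma adjusted p = 0.000912) and in set 3 (-0.40 ± 0.089, limma adjusted p = 0.0223), with -0.22 ± 0.089 in set 2 (SE, limma adjusted p = 0.511). Its TPM was 20.2 to 27.9 in the shared controls and 15.98 to 17.6 in set 3, with no overlap. MCAT, of mitochondrial fatty acid synthesis, fell by 0.24 in set 1 on the log2 scale (limma adjusted p = 0.000917), and HSD17B8, of the same pathway, rose by 0.16 (limma adjusted p = 0.0133).

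Of 6 genes of pyruvate supply, LDHA, a lactate dehydrogenase subunit, fell in set 1 (-0.19, limma adjusted p = 0.000568) and no other was called. LDHB had the smallest p of that list in sets 2 and 3 (0.21 and 0.30, limma adjusted p = 0.564 and 0.0607).

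Of 6 further lipoyl enzyme and partner genes, MRPS36, whose product links E3 to the 2-oxoglutarate complex, rose in set 1 (0.21, limma adjusted p = 0.00501). So did DHTKD1, the E1 of the 2-oxoadipate complex that shares DLST and DLD, which held 42.9 ± 1.26 TPM against 39.1 ± 2.02 TPM in controls (SD, n = 4) (0.13, limma adjusted p = 0.0316). DHTKD1 stood at 0.20 in set 2 and 0.43 in set 3 without a call (limma adjusted p = 0.656 and 0.0655). GCSH and AMT, of the glycine cleavage system, had the smallest p of this list in sets 3 and 2 (0.18 and 0.23, limma adjusted p = 0.0509 and 0.494). AMT was near the filter of 1 TPM, with means of 1.35 TPM in the shared controls and 1.75 TPM in set 2.

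Of 14 tricarboxylic acid cycle genes 3 rose and 2 fell in set 1, near the 30.3% of all genes called there. CS, citrate synthase, fell (-0.13, limma adjusted p = 0.0019) and IDH3G and SDHB rose (0.15 and 0.11, limma adjusted p = 0.0128 and 0.0157). None was called in sets 2 and 3 by limma, beside 0.0126% and 11.6% of all genes. An unadjusted p under 0.05 was seen for 2 and 5 of the 14, and for 1401 and 5470 of 15860 genes. In set 3 the smallest p belonged to FH, fumarase (0.34, limma adjusted p = 0.0581).

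Of 18 genes of branched-chain amino acid breakdown 4 rose and 2 fell in set 1, near the 30.3% of all genes, and 1 rose in set 3, beside 11.6%. ACADSB and BCAT2, a dehydrogenase and a transaminase of the pathway, rose in set 1 (0.31 and 0.23, limma adjusted p = 0.00217 and 0.00207). ALDH6A1, of valine breakdown, rose in set 3 (0.24, limma adjusted p = 0.0446). ECHS1 had the smallest p in set 2 and between sets 3 and 2 (-0.10 and 0.12, limma adjusted p = 0.568 and 0.225).

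Between sets 3 and 2 the smallest p in the other 6 lists belonged to DBT (0.13), PDK4 (0.16), OXSM (-0.18), THTPA (-0.12), MPC1 (0.10) and SDHC (0.18), with limma adjusted p from 0.21 to 0.397.

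**Figure D4:**
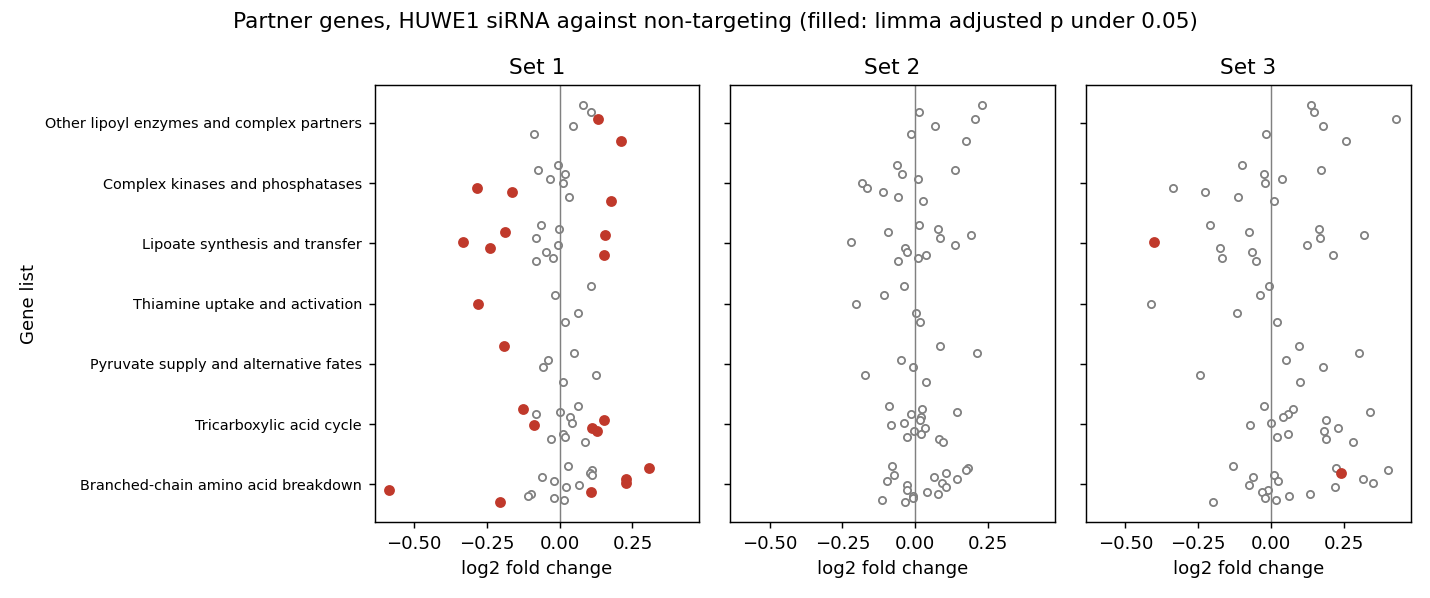
Log2 fold changes of 70 genes in 7 lists (rows) in sets 1, 2 and 3, where filled points passed a limma adjusted p of 0.05. Calls go both ways in set 1 (12 higher and 11 lower), 0 pass in set 2 and 1 passes in each direction in set 3.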

How the data were processed

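The authors deposited TPM values for 45372 gene symbols in 2 tables, 1 with the 8 libraries of set 1 and 1 with the 12 libraries of sets 2 and 3. The genome build is hg38 according to the submitters' processing notes, and the sources used here name no aligner, counter or annotation. From the deposited TPM, values were put on a log2(TPM + 1) scale, which shrinks the fold changes of low genes. Genes reaching a TPM of 1 in 4 or more libraries of their table entered limma 3.58.1 (R 4.3.3) with a mean-variance trend, set 1 in 1 fit and the second table in another. A call is a two-sided Benjamini-Hochberg adjusted p under 0.05 over all genes tested. The scripts were tested on simulated data.

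The 10 genes and the 7 other lists were chosen with earlier results of these data known. The text names the 10 genes, HUWE1, the 5 genes most like DLD and, from each other list and comparison, up to 3 called genes with the smallest p, or the 1 gene with the smallest p where limma called none; 2 genes that the rule names are not reported here. DHTKD1, LIPT1, PDP1, PDP2 and HSD17B10 are also given in sets where that rule did not name them, chosen after their values were seen. Positions are from GENCODE release 29 (GRCh38) and promoter windows from RefSeq (GRCh38.p14). Alternatives were a pseudocount of 0.1, no filter, median-of-ratios scaling, TPM without mitochondrially encoded genes, no variance trend, the replicate block, only the 2 groups compared and leaving out each library. Leaving out NT replicates 1 and 4 together was chosen after seeing the data.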

Additional observations from a re-analysis of the deposited data

Results flagged for a closer look

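OGDH differed between HUWE1 sets 3 and 2 by -0.47 on the log2 scale, with 4 of 4 set 3 libraries below every set 2 library. This is the difference of 2 fold changes on which the gene was chosen, so it is not independent evidence, and OGDH was no longer called without any of 6 of the 8 HUWE1 libraries or with the replicate number as a block.

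A library far from the other three of its group was seen for 2 of 50 gene and group pairs, where chance gives about 1 in 20. BCKDHA was 35.0 TPM in set 1 NT replicate 2, against 30.9 to 31.6 in the other controls. BCKDHB was 26.2 TPM in HUWE1 set 3 replicate 2, against 28.5 to 28.9 in the others.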

How the results depend on the processing

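OGDH kept its negative fold change in sets 1, 2 and 3 and between sets 3 and 2 under every alternative run (the gene was chosen on these values). Leaving out a library gave -0.25 to -0.21, -0.24 to -0.12 and -0.71 to -0.59 in sets 1, 2 and 3. Over all 10 genes, 677 single-gene values kept their direction and side of the threshold, 22 lost a call, 8 gained one and 23 changed sign, all of them values near zero that were not called. BCKDHA between sets 3 and 2 changed sign with median-of-ratios scaling (-0.0033) and without mitochondrially encoded genes (-0.012). When 1 library was left out, sign changes were seen in set 1 for PDHA1 (-0.020 to 0.027), PDHB (-0.0047 to 0.035) and PDHX (-0.0062 to 0.049), in set 2 for PDHA1 (-0.081 to 0.056) and DLST (-0.0060 to 0.032), and between sets 3 and 2 for PDHB (-0.026 to 0.018), OGDHL (-0.068 to 0.030), BCKDHA (-0.037 to 0.060) and BCKDHB (-0.026 to 0.10).

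Counts of calls among the 10 genes are descriptions, to be read beside the counts over all genes below. Of the 10 genes, 3 were called in set 1, 1 without the filter and 1 to 4 when 1 library was left out. In set 3 the count was 1, and 1 to 5 when 1 library was left out, the 5 without NT replicate 4; without NT replicates 1 and 4 it was 2. Between sets 3 and 2 it was 1, and 0 to 1 when 1 library was left out. In set 2 it was 0 throughout. Over all genes, the calls in set 2 numbered 2, and 1 with median-of-ratios scaling, without the variance trend, with the replicate block and with only the 2 groups compared, 6 without mitochondrially encoded genes, and 1 to 2 when 1 library was left out. In set 3 they numbered 1839, and 698 without the filter, 360 with only the 2 groups compared, 3245 without NT replicates 1 and 4, and 163 (HUWE1 set 3 replicate 3) to 5878 (NT replicate 4) when 1 library was left out. Between sets 3 and 2 they numbered 82, and 42 without the filter, 335 with only the 2 groups compared, and 20 (HUWE1 set 3 replicate 3) to 228 (NT replicate 4) when 1 library was left out. In set 1 leaving out 1 library gave 3640 to 4675 calls, against 4863. The cause was not tested, beyond the fewer libraries or the larger number of genes tested. The share of higher genes among calls was 40.8% in set 1 and 50.6% with median-of-ratios scaling, and in set 3 64.2%, 48.9% with that scaling and 44.4% without mitochondrially encoded genes. Between sets 3 and 2 it was 59.8%, and 49.3% without mitochondrially encoded genes.

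Same-numbered libraries' deviations from their group means correlated between 0.000215 and 0.0521 in set 1 and between -0.481 and 0.0389 in set 2. In set 3 they ran from -0.0266 to 0.407, and between sets 3 and 2 from -0.249 to 0.11. For libraries with different numbers the ranges were -0.0914 to 0.07, -0.18 to 0.445, -0.331 to 0.269 and -0.25 to 0.204 in the same order. In set 3 the largest value was a same-numbered pair, so these values do not settle whether the numbers pair the libraries. With the replicate block 4597 genes were called in set 1, 693 in set 3 and 17 between sets 3 and 2, where OGDH lost its call (0 of the 10 genes called). The depth of these libraries is unknown, so no counting error could be set beside the spread between replicates.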

Other observations

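HSD17B10, a mitochondrial dehydrogenase of isoleucine breakdown whose gene neighbours HUWE1 on the X chromosome, had the smallest p of the branched-chain list in set 1. It fell from 231 ± 8.19 to 154 ± 5.66 TPM (SD, n = 4), or 66.6% of control, in 4 of 4 libraries (log2 fold change -0.58 ± 0.034 (SE), limma adjusted p = 1.04e-05). In sets 2 and 3 it stood at 98.1% and 99.1% of control (-0.028 and -0.012, limma adjusted p = 0.871 and 0.895). OGDH, in contrast, stood at 84.9%, 88.8% and 63.7% of control in the same sets. Whether the fall of HSD17B10 differs between set 1 and the others was not tested, since the tables were normalized separately.

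Among E1 genes that work with DLST and DLD, OGDH had negative fold changes in all 3 sets while OGDHL and DHTKD1 had positive ones. DHTKD1 was at 71.1 TPM in the shared controls and 94.3 TPM in HUWE1 set 3, where OGDH was at 44.1 TPM. The control range of DHTKD1, 50.7 to 90.4 TPM, overlapped that of set 3, 86.1 to 103 TPM.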
